A study of Mastomys natalensis with 3 samples.

Results

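Digestive enzymes made by the exocrine pancreas were followed in gastric RNA of the African rodent Mastomys natalensis, which develops gastric carcinoids. The set held 9 of the 4736 genes with a singly named probe set: Pnlip, Pnliprp1, Cel, Cpa1, Cpb1, Cela1, Ctrb1, Prss1 and Prss2. Every probe set annotated to 1 of these symbols was taken, which gave 11 of the 8740 non-control probe sets on the array. The set was chosen by the normalized intensity of Pnlip, which an earlier look at the same values had shown to be high on 1 array, and the question was whether the other enzymes followed it. The Pnlip values therefore chose the set and are given as a description.

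RNA was hybridised to Affymetrix rat expression arrays, 1 array for each of 3 groups. By their labels all 3 samples were cell populations of the stomach lining enriched for enterochromaffin-like (ECL) cells, which store histamine. The spontaneous carcinoid group came from Mastomys that developed an ECL cell carcinoid of the stomach without a stated treatment. The 16-week and 8-week groups came from Mastomys given loxtidine, a histamine H2 receptor blocker that lowers acid secretion, for 16 and for 8 weeks. The sources used here give no strain, age or number of animals pooled per sample. As source, the labels name the mucosa for the carcinoid and 16-week samples and gastric ECL cells for the 8-week one. With 1 array per group there are no replicates, and no difference was tested.

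Pancreatic acinar cells store digestive enzymes, many of them as inactive precursors, in zymogen granules and release them into the duodenum. Trypsin cut from its precursor trypsinogen activates the other protease precursors, lipases act on dietary fat with the cofactor colipase, and carboxypeptidases trim the ends of peptides. Healthy acid-secreting gastric mucosa is known for pepsinogen, intrinsic factor and, in some species, gastric lipase.

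Values are normalized intensities unless called deposited. A floor was set at 12.4, the median of all non-control values pooled over the arrays, and anything under it was raised to it before a difference was taken. A difference with only 1 array at or above the floor is thus a bound, written "at least". Of 38 no-target controls (antisense, yeast, murine and added bacterial sequences presumed missing from this RNA), 9 passed the floor for the carcinoid, 9 for 16 weeks and 8 for 8 weeks, so readings just over it may be background. The highest of these controls had a deposited intensity of 55.3 (carcinoid), 31.3 (16 weeks) and 34.6 (8 weeks). Median deposited intensities of all probe sets were 13.8, 13.1 and 10.1 on the carcinoid, 16-week and 8-week arrays. The 3' to 5' ratio of the GAPDH control, which grows as RNA is shortened, was 2.31 (carcinoid), 1.43 (16 weeks) and 8.95 (8 weeks), and that of the actin control was 11.7 (carcinoid), 6.71 (16 weeks) and 16.1 (8 weeks). Both were highest at 8 weeks and lowest at 16 weeks, and their part in the differences from 8 weeks was not tested. Lot labels differed between all arrays, so a lot effect cannot be told apart from the groups. Stomach markers differed in brightness, with pepsinogen C (Pgc) at 3724 on the carcinoid array, 4589 at 16 weeks and 4695 at 8 weeks. The mucous cell marker Gkn1, named after its values were seen, read 28.7 (carcinoid), 26.2 (16 weeks) and 28.7 (8 weeks). Other mucous cell markers were less even and differed in direction. Muc5ac on its brightest probe set read 212.5 (carcinoid), 168.2 (16 weeks) and 15.8 (8 weeks). Tff2 read 65.6 (carcinoid), 19.3 (16 weeks) and 44.8 (8 weeks), and Tff3 read 25.2 (carcinoid), 60.0 (16 weeks) and 62.65 (8 weeks). Histidine decarboxylase (Hdc), the enzyme that defines ECL cells, lay below the floor on every array (3.2 on carcinoid, 4.77 at 16 weeks and 4.43 at 8 weeks), so that probe set does not show the ECL cells named in the labels. Some other ECL and endocrine cell markers reached the floor on every array with their brightest probe sets. Cckbr read 35.25 (carcinoid), 56.5 (16 weeks) and 74.3 (8 weeks), and Syp 26.7, 33.6 and 57.1 in the same order. Slc18a2 read 23.2, 42.3 and 21.8, and Chgb 17.7, 35.4 and 37.6. Scg2 and the second Cckbr probe set reached it at 16 weeks alone, and the second Slc18a2 probe set on none.

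Few of the enzyme probe sets stood above background. Of the 11, 3 reached the floor for the carcinoid (27.3%), 6 for 16 weeks (54.5%) and 5 for 8 weeks (45.5%), where about 50% of all non-control probe sets do so by the definition of the floor. Cel and Cela1 reached it on all 3 arrays (18.2%, against 30.5% of all non-control probe sets). Another 4 probe sets reached it on none (36.4%, against 29.2%). Those 4 were both Prss2 probe sets, the Pnliprp1 probe set and the second Pnlip probe set. Above the highest no-target control of the same array lay 1 enzyme probe set for the carcinoid (Cel), 2 for 16 weeks (Cel and Cpa1) and 2 for 8 weeks (Pnlip and Cela1). These were 9.09% of the enzyme probe sets for the carcinoid, against 14.1% of all non-control probe sets, 18.2% against 25.9% for 16 weeks, and 18.2% against 15.4% for 8 weeks. The array with the highest value also differed between members. Among the 7 that reached the floor anywhere, it was the carcinoid array for 1 (Cel), the 16-week array for 4 (Cpa1, Cpb1, Ctrb1 and Prss1) and the 8-week array for 2 (Pnlip and Cela1). Of all non-control probe sets that reached it anywhere, 32.5% were highest on the carcinoid array, 30.3% at 16 weeks and 37.3% at 8 weeks. Cpb1 and Ctrb1 reached the floor at 16 weeks alone, so the floor fixed their place. The same arrays held the highest deposited values of the 7 enzymes.

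**Figure D1:**
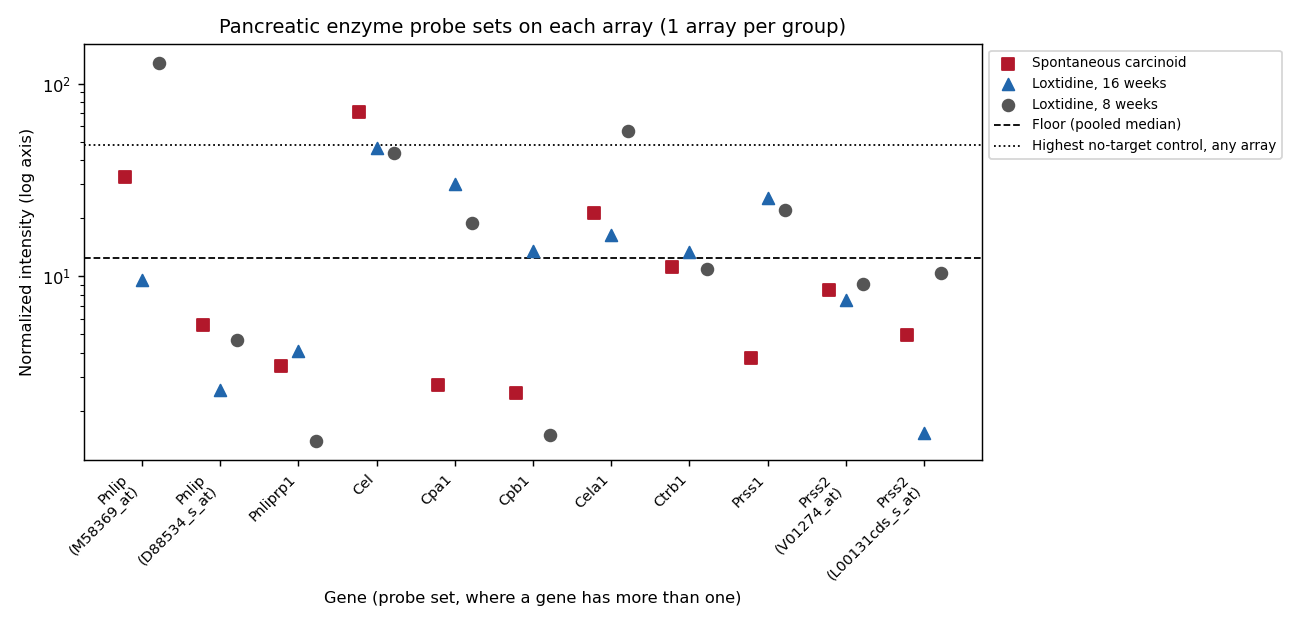
Normalized intensity (log axis) of the 11 enzyme probe sets, with 1 point per array for the carcinoid, 16-week and 8-week groups, the floor dashed and the highest no-target control of any array dotted. Pnlip on probe set M58369_at spans 9.57 to 128, and 4 probe sets stay below the floor of 12.4 on every array.

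Among the lipases, Pnlip, which splits dietary triglycerides, had a pair of probe sets. The brighter, M58369_at, had deposited intensities of 37.0 (carcinoid), 10.2 (16 weeks) and 88.0 (8 weeks). After normalization these were 32.6 (carcinoid), 9.57 (16 weeks) and 128 (8 weeks). The 8-week array was thus the highest, the carcinoid array intermediate and the 16-week array below the floor. Pnlip was not confined to 1 array at this floor, since the carcinoid value also passed it. Measured against the no-target controls, 2 of 38 were at or above Pnlip on the carcinoid array, 13 at 16 weeks and 0 at 8 weeks. Relative to 8 weeks, Pnlip was lower by at least 10.3-fold at 16 weeks (log2 difference -3.37) and by 3.92-fold in the carcinoid (-1.97). The carcinoid exceeded 16 weeks by at least 2.63-fold (1.40). With the floor raised to 30.0, the 75th percentile, or to 48.0, the highest no-target control (chosen after seeing the data), the 16-week bound became at least 4.27-fold or at least 2.67-fold. In deposited values, with no floor, the folds were 8.63, 2.38 and 3.63, in the same directions.

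The second Pnlip probe set, D88534_s_at, did not show this pattern. It read 6.1 (carcinoid), 2.8 (16 weeks) and 3.9 (8 weeks) as deposited, and lay below the floor on every array, so it gives no fold. Its carcinoid value was the highest of the 3. An "_s_at" name marks a probe set that can match several related transcripts. The high 8-week Pnlip reading therefore rests on 1 probe set of rat sequence met by Mastomys RNA, and the match of either probe set to the Mastomys transcript was not tested.

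Cel, the bile salt-stimulated lipase that also splits cholesterol esters, was at or above the floor throughout, at 71.5 on the carcinoid array, 46.3 at 16 weeks and 43.7 at 8 weeks. Its order differed from that of Pnlip, with the highest value in the carcinoid and the lowest at 8 weeks. The carcinoid value was 1.63-fold that at 8 weeks (log2 difference 0.71) and 1.54-fold that at 16 weeks (0.63), and the 16-week value was 1.06-fold that at 8 weeks (0.08). As deposited, Cel was 2.52-fold higher on the carcinoid array than at 8 weeks. Pnliprp1, a close relative of Pnlip with little lipase activity of its own, had deposited intensities of 3.6 on the carcinoid array, 4.5 at 16 weeks and 1.2 at 8 weeks. All of these were below the floor, and the 8-week reading, where Pnlip was highest, was at or below all 38 no-target controls.

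The carboxypeptidases did not share the Pnlip pattern. Cpa1, which removes aromatic and aliphatic residues from the end of a peptide, read 2.73 on the carcinoid array, 30.2 at 16 weeks and 19.0 at 8 weeks. The 16-week array was highest and the carcinoid array was below the floor. Cpa1 was 1.59-fold higher at 16 than at 8 weeks (log2 difference 0.67), at least 2.44-fold lower on the carcinoid array than at 16 weeks (-1.29) and at least 1.53-fold lower than at 8 weeks (-0.61). The deposited carcinoid value of 2.9 was 11.2-fold under the 32.6 at 16 weeks, but 30 of 38 no-target controls were at or above it. At 8 weeks 6 of 38 were at or above the Cpa1 value. Cpb1, which removes basic residues, read 2.47 (carcinoid), 13.6 (16 weeks) and 1.5 (8 weeks). It passed the floor at 16 weeks alone, and 8 of 38 no-target controls were at or above its deposited value there.

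Among the serine proteases, Cela1, the elastase of the family, was highest at 8 weeks and lowest at 16 weeks, as Pnlip was. Its values were 21.2 on the carcinoid array, 16.4 at 16 weeks and 56.6 at 8 weeks, all at or above the floor. As deposited they were 23.6 (carcinoid), 17.3 (16 weeks) and 42.8 (8 weeks), and only the last exceeded every no-target control of its array. Cela1 was 3.45-fold lower at 16 than at 8 weeks (log2 difference -1.79) and 2.66-fold lower on the carcinoid array than at 8 weeks (-1.41). The carcinoid value was 1.29-fold that at 16 weeks (0.37). At a floor of 30.0 or 48.0, the difference from 8 weeks was a bound of at least 1.89-fold or at least 1.18-fold on both other arrays. As deposited, Cela1 was 2.47-fold lower at 16 weeks and 1.81-fold lower on the carcinoid array than at 8 weeks.

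Prss1, a trypsinogen, had the same order of arrays as Cpa1. It read 3.77 on the carcinoid array, 25.5 at 16 weeks and 22.1 at 8 weeks. Of 38 no-target controls, 24 (carcinoid), 3 (16 weeks) and 6 (8 weeks) were at or above its deposited value, so no Prss1 reading cleared them all. The 16-week and 8-week values differed by 1.15-fold (log2 difference 0.20), and the carcinoid value was at least 2.05-fold lower than at 16 weeks (-1.04) and at least 1.79-fold lower than at 8 weeks (-0.84). Ctrb1, chymotrypsinogen B, lay at the floor with 11.2 (carcinoid), 13.3 (16 weeks) and 10.9 (8 weeks), so no difference between arrays could be read from it. The other trypsinogen, Prss2, stayed below the floor on every array with both probe sets. Its V01274_at probe set read 8.5 (carcinoid), 7.53 (16 weeks) and 9.17 (8 weeks), and L00131cds_s_at read 4.93 (carcinoid), 1.53 (16 weeks) and 10.4 (8 weeks). Trypsinogens are a family of near-identical genes, so the assignment of any of these signals to 1 member is uncertain.

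**Figure D2:**
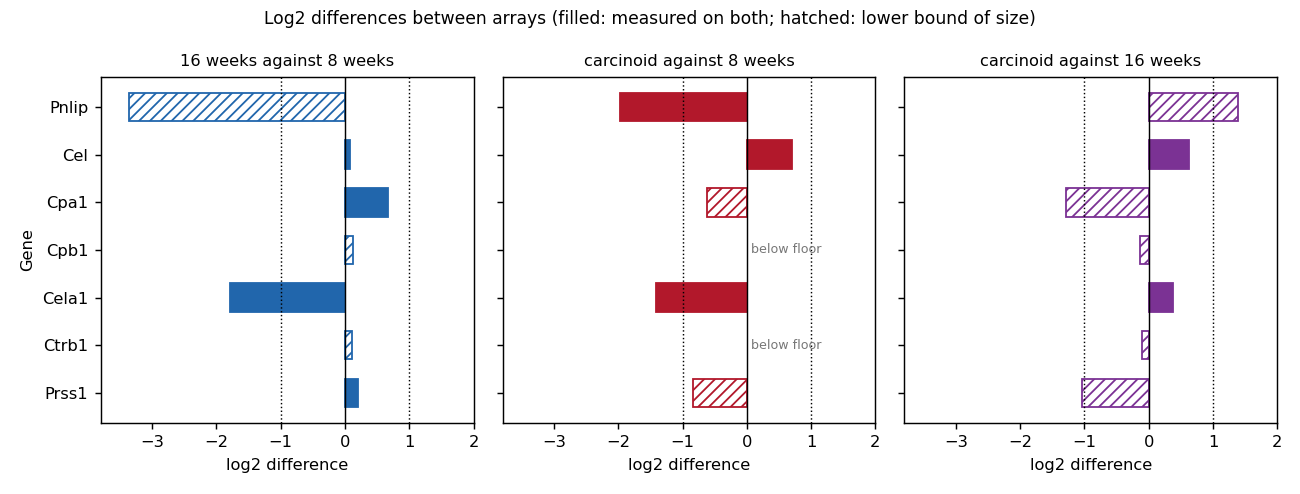
Log2 difference of the 7 enzymes that reached the floor, in 3 panels (16 weeks minus 8 weeks, carcinoid minus 8 weeks, carcinoid minus 16 weeks). Filled bars were measured on both arrays, hatched bars are lower bounds of the size, and dotted lines mark a 2-fold difference; Pnlip and Cela1 pass it downward in both comparisons with 8 weeks, at -3.37 and -1.79 for 16 weeks.

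The enzymes differed from each other in direction and size. For 16 against 8 weeks, 2 of the 7 with a value were at least 2-fold lower (Pnlip and Cela1), where 12.9% of all probe sets were, and 0 were at least 2-fold higher, where 13.9% were. The Pnlip difference chose the set, so without it 1 of 6 was lower. The remaining 5 had the 16-week value on top, with 3 measured at 0.67 or less and 2 known as bounds alone (Cpb1 and Ctrb1). The median of the 7, bounds included, was 0.10, against -0.005 over all probe sets. For carcinoid against 8 weeks, 2 of 5 were at least 2-fold lower (the same pair), against a background of 14.0%, and 0 were at least 2-fold higher (background 14.6%). Cpa1 and Prss1 had bounds under 2-fold there, so the side of 2-fold on which they lie is not known. The median there was -0.84, against -0.03 over all probe sets, and Cel alone was above 0. That median is the bound of Prss1. Prss1 and Cpa1 passed the floor at 8 weeks and not on the carcinoid array, so both had to lie below 0. Without Pnlip, which chose the set, Cela1 alone was called lower. As deposited, where the median over all probe sets lay 0.42 (16 weeks) and 0.45 (carcinoid) above 8 weeks, 2 of 7 were lower (Pnlip and Cela1) and 1 higher (Cpa1) at 16 weeks, and 1 of 6 was lower (Pnlip) and 1 higher (Cel) in the carcinoid. All probe sets were lower in 6.36% and higher in 21.8% at 16 weeks, and lower in 6.04% and higher in 25.8% in the carcinoid, on that scale. For carcinoid against 16 weeks, 2 of 7 were at least 2-fold lower (Cpa1 and Prss1, both bounds), against a background of 9.67%. Only Pnlip, which chose the set, was at least 2-fold higher (1 of 7, background 9.38%). The median there was -0.10 against 0.01. With so few members, 1 gene moves each of these shares by over 10 percentage points, and nothing particular to the enzymes is read from them.

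The only error that could be estimated came from the disagreement between probe sets made from different sequences of 1 gene. It is given as the standard deviation of a single probe set, which is smaller than the typical gap between a pair of them. In log2 units it was 0.81 between 16 and 8 weeks over 269 genes, 0.87 between carcinoid and 8 weeks over 248 genes, and 0.64 between carcinoid and 16 weeks over 287 genes. The pair of probe sets lay over 1 log2 unit apart in 36.4%, 42.7% and 27.9% of these genes, in the same order. This error holds no variation between animals. It was taken from probe sets at or above the floor on both arrays, so it was not estimated for readings below the floor. The differences of all probe sets from 8 weeks had standard deviations of 0.92 (16 weeks) and 0.95 (carcinoid), so many probe sets lie beyond this error. Cela1 lay beyond it in both comparisons with 8 weeks. As deposited, its carcinoid difference from 8 weeks was -0.86, which did not exceed the 0.87. Pnlip values chose the set, so their place beyond this error in both comparisons with 8 weeks is a description alone. The bounds of Cpa1 and Prss1 lay beyond it for carcinoid against 16 weeks. For carcinoid against 8 weeks their bounds (-0.61 and -0.84) do not show whether they lie beyond it, and with the floor at 4.2, the 25th percentile, the bounds were -2.18 for Cpa1 and -2.40 for Prss1. Cel lay within it in all 3 comparisons. In these mixed-cell samples, fewer cells of a type and less RNA per cell cannot be told apart.

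Likeness to Pnlip was measured as the Euclidean distance between pairs of log2 differences from the 8-week array (16 weeks and carcinoid), over 3 arrays. Values under the floor were raised to it first, so the 16-week difference of Pnlip is a bound, as are the carcinoid differences of Cpa1 and Prss1. Cpb1 and Ctrb1, under the floor on the carcinoid and 8-week arrays, entered with a carcinoid difference of 0. The distances and the order of the genes therefore hold for this floor alone. On that footing Cela1 was the nearest enzyme at 1.68, and the remaining 5 lay between 3.75 (Prss1) and 4.37 (Cel). Of 4973 probe sets outside the set, 70 lay nearer to Pnlip than Cela1 did, 1982 nearer than Prss1 and 3322 nearer than Cel. The 5 genes nearest to Pnlip outside the set were Nfkbia, an inhibitor of NF-kappaB (distance 0.11), the transcription factor Cebpb (0.16), the clathrin adaptor subunit Ap2m1 (0.21), the mRNA-decay factor Zfp36 (0.55) and the co-chaperone Dnajb1 (0.56). Nfkbia, for instance, read 36.4 on the carcinoid array, 13.1 at 16 weeks and 133 at 8 weeks. Each of these 5 was taken at its probe set nearest to Pnlip, whatever its brightness, and any other probe sets of these genes were not compared. None of these 5 is a digestive enzyme. The distance rests on 3 arrays, so many unrelated genes can have a like pattern.

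**Figure D3:**
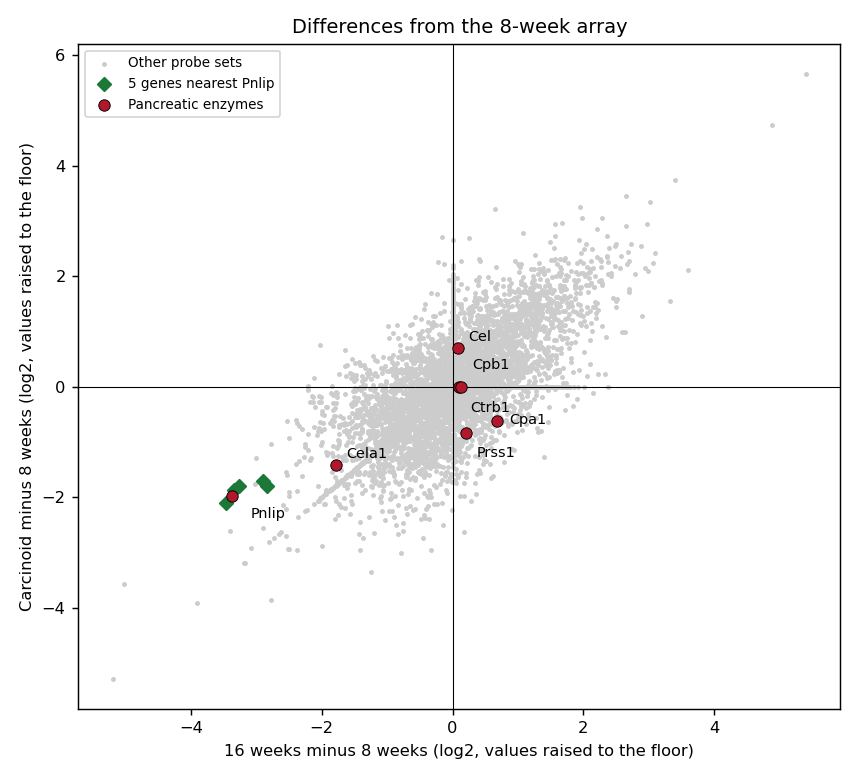
Each point is a probe set at or above the floor on at least 1 array, placed by its log2 difference of 16 weeks from 8 weeks (horizontal) and of carcinoid from 8 weeks (vertical). Pnlip lies at -3.37 and -1.97 beside the 5 nearest genes (diamonds), Cela1 lies at -1.79 and -1.41, and the other enzymes lie in the main cloud.

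Other secretory products of the acinar cell also differed in direction. Of 30 genes on that list, 20 had a probe set, and 15 of these reached the floor on at least 1 array. For 16 against 8 weeks, 3 of 14 were lower and 4 higher by 2-fold or more, where 12.8% and 13.9% of all genes were. For carcinoid against 8 weeks, 5 of 14 were lower and 2 higher (13.7% and 14.6% of all genes). For carcinoid against 16 weeks, 3 of 12 were lower and 2 higher (9.29% and 9.41%). The median log2 differences in these comparisons were -0.12, -0.21 and -0.30. As deposited they were 0.28, 0.21 and -0.21, with 2 lower and 5 higher of 14 at 16 weeks and 2 lower and 2 higher of 15 in the carcinoid, relative to 8 weeks. The summed brightest probe sets of the list came to 5270 on the carcinoid array, 9840 at 16 weeks and 6056 at 8 weeks, and most of that sum was 1 gene, Pla2g1b.

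Colipase (Clps), the cofactor that anchors pancreatic lipase to fat droplets, was far above the floor on every array, at 343.5 on the carcinoid array, 1124 at 16 weeks and 1059 at 8 weeks. It did not follow Pnlip, being 1.06-fold higher at 16 than at 8 weeks where Pnlip was at least 10.3-fold lower. Clps was 3.08-fold lower on the carcinoid array than at 8 weeks and 3.27-fold lower than at 16 weeks. As deposited it read 439.6 (carcinoid), 1214 (16 weeks) and 610.3 (8 weeks), 1.39-fold lower on the carcinoid array and 1.99-fold higher at 16 weeks than at 8 weeks. The pancreatic secretory phospholipase Pla2g1b, named after its values were seen, read 4589 on the carcinoid array, 8264 at 16 weeks and 4589 at 8 weeks. It was 1.80-fold higher at 16 than at 8 weeks (2.58-fold as deposited), and the normalized carcinoid and 8-week values were equal (4428 and 3636 as deposited).

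Pancreatic ribonuclease (Rnase1) had the Pnlip direction. It read 10.5 on the carcinoid array, 12.0 at 16 weeks and 59.1 at 8 weeks, at least 4.77-fold lower on both other arrays than at 8 weeks. Chymotrypsin C (Ctrc), also named after its values were seen, read 17.9 (carcinoid), 21.8 (16 weeks) and 48.2 (8 weeks), 2.69-fold lower on the carcinoid array and 2.21-fold lower at 16 weeks than at 8 weeks (1.86-fold and 1.61-fold as deposited). Pancreatic amylase (Amy2a3), which digests starch, ran the other way with 50.9 (carcinoid), 40.4 (16 weeks) and 16.1 (8 weeks), 3.16-fold and 2.50-fold higher than at 8 weeks. The elastase Cela2a, a relative of Cela1 named after its values were seen, was also lowest at 8 weeks, with 21.0 (carcinoid), 26.2 (16 weeks) and 2.57 (8 weeks). Reg3b, a secreted lectin of the injured pancreas and gut, reached the floor at 16 weeks alone (44.8, with 11.8 on carcinoid and 1.4 at 8 weeks).

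**Figure D4:**
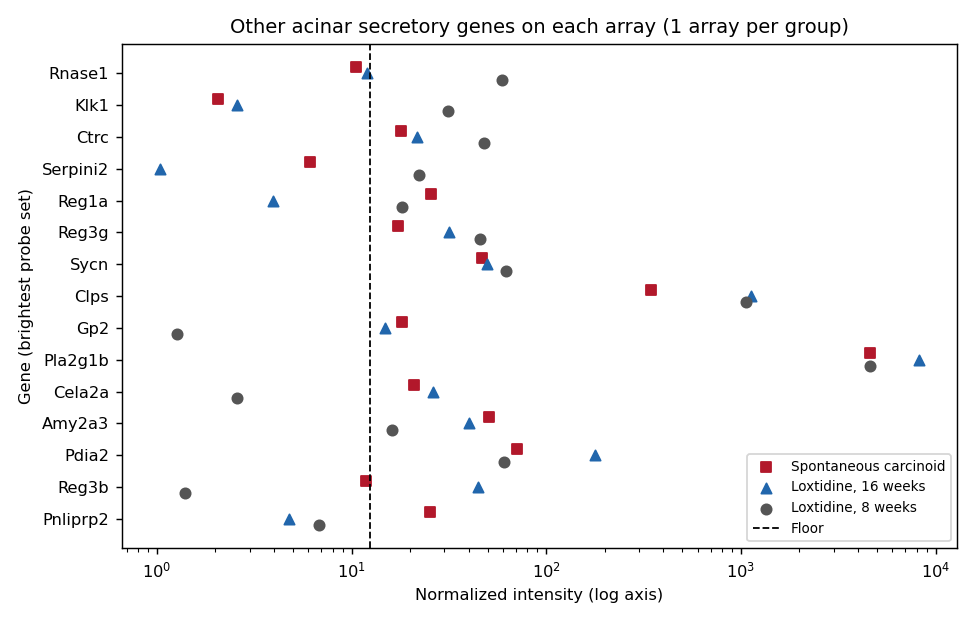
Normalized intensity (log axis) of the 15 other acinar secretory genes that reached the floor, with 1 point per array for the carcinoid, 16-week and 8-week groups. Rnase1 was highest at 8 weeks (59.1), Amy2a3 lowest there (16.1), and Clps close on the 16-week and 8-week arrays after normalization (1124 and 1059).

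Regulators and receptors of acinar cells were read from 7 genes, of which 4 reached the floor. Ptf1a, a transcription factor that specifies them, was below the floor on all 3 (2.27 on carcinoid, 5.47 at 16 weeks and 4.2 at 8 weeks). Bhlha15, a factor shared with gastric chief cells, read 4.77 (carcinoid), 35.1 (16 weeks) and 17.5 (8 weeks), an order it shared with Cpa1 and Prss1. The endodermal factor Gata6 read 340.5 (carcinoid), 387.2 (16 weeks) and 85.1 (8 weeks), 4.55-fold higher at 16 weeks than at 8 weeks on its brightest probe set. Its other 2 probe sets, rc_AA955182_at and rc_AA955182_g_at, lay below the floor on every array and give no fold. Relative to 8 weeks, 2 of the 4 were at least 2-fold higher at 16 weeks (13.9% of all genes) and 1 of the 4 on the carcinoid array (14.6%). None was called lower, where 12.8% and 13.7% of all genes were, but Bhlha15 on the carcinoid array is a bound of at least 1.41-fold lower, and its deposited 5.1 was 2.80-fold under the 14.3 at 8 weeks.

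Markers of neighbouring tissues were read beside the enzymes. Over all genes, 12.8% were at least 2-fold lower and 13.9% higher at 16 than at 8 weeks, and 13.7% lower and 14.6% higher on the carcinoid array. Of the islet list, 2 of 8 were at least 2-fold lower at 16 than at 8 weeks and 3 of 7 on the carcinoid array, with 0 higher in either comparison. Its brightest-probe sums were 513.3 on the carcinoid array, 693.9 at 16 weeks and 794.8 at 8 weeks. Enterocyte markers were lower in 3 of 9 at 16 weeks and in 3 of 8 on the carcinoid array, with 0 higher, and their sums were 261.7 (carcinoid), 230.8 (16 weeks) and 474.1 (8 weeks). Apoc3, an apolipoprotein of gut and liver, was at least 7.02-fold lower on both other arrays than at 8 weeks on its brightest probe set, and Mamdc4, a membrane protein of the absorptive gut of young rats, was at least 6.84-fold lower at 16 weeks and 2.05-fold lower on the carcinoid array. As deposited, Mamdc4 read 47.1 on the carcinoid array and 61.2 at 8 weeks, a difference under 2-fold. Most other members were also lower at 16 than at 8 weeks on their brightest probe sets. Log2 differences were -1.29 (Apob), -0.96 (Anpep), -0.51 (Slc5a1), -0.42 (Apoa4) and -0.375 (Lct). As deposited, Slc5a1 (0.015) and Lct (0.095) were higher. On the carcinoid array Lct was at least 3.97-fold lower than at 8 weeks, Apob, Anpep and Slc5a1 under 2-fold lower, and Apoa4 higher (0.086). Other Apob probe sets differed in direction. Fabp2 and Alpi were higher at 16 than at 8 weeks. The fatty acid binding protein Fabp2 reached the floor at 16 weeks alone (17.9, with 2.47 on carcinoid and 2.57 at 8 weeks), and the intestinal phosphatase Alpi read 40.2 (carcinoid), 40.8 (16 weeks) and 31.4 (8 weeks), both named after their values were seen. The other Apoc3 probe sets were highest on the carcinoid array instead. The defining enterocyte gene Fabp1 was not among the genes that reached the floor on any array. Hepatocyte markers had 0 of 10 lower and 2 higher at 16 weeks, and 1 lower and 1 higher of 10 on the carcinoid array, with sums of 408.5 (carcinoid), 406.2 (16 weeks) and 483.9 (8 weeks). As deposited, where 6.32% of all genes were lower and 22.7% higher at 16 weeks, and 5.91% lower and 26.4% higher on the carcinoid array, the islet list had 2 of 8 (16 weeks) and 2 of 7 (carcinoid) lower and the enterocyte list 2 of 9 in each, with sums of 619.0 (carcinoid), 756.2 (16 weeks) and 544.4 (8 weeks) for islet and 297.0 (carcinoid), 247.8 (16 weeks) and 357.3 (8 weeks) for enterocytes. The part of any of these tissues in the Pnlip and Cela1 readings was not tested.

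Counts against 8 weeks for the remaining lists were small, and are to be read against the 12.8% of all genes lower and 13.9% higher at 16 weeks, and the 13.7% lower and 14.6% higher on the carcinoid array. The chief cell list holds Prss1, itself 1 of the 9 enzymes, and shares Bhlha15 with the acinar regulators. Other lists also share genes, so their counts are not independent. Car2 is on the duct and parietal lists, and Muc1 on the duct and mucous lists. The list of other lipases shares Lipf with chief cells and Lpl and Lipe with adipocytes. Klk1 is on the acinar secretory and other protease lists, and Serpina1 on the hepatocyte and inhibitor lists. At 16 weeks, the genes lower and the genes higher by 2-fold or more numbered 1 and 1 of 5 for duct, 0 and 1 of 4 for chief cells, 0 and 1 of 5 for parietal cells, 1 and 1 of 6 for mucous cells, 0 and 0 of 5 for ECL and endocrine cells, 1 and 0 of 7 for mast cells and 0 and 0 of 3 for adipocytes. On the carcinoid array they numbered 1 and 2 of 5 for duct, 0 and 0 of 5 for chief cells, 1 and 1 of 5 for parietal cells, 1 and 1 of 6 for mucous cells, 3 and 0 of 4 for ECL and endocrine cells, 0 and 0 of 6 for mast cells and 0 and 0 of 3 for adipocytes. As deposited, with 6.32% of all genes lower and 22.7% higher at 16 weeks and 5.91% lower and 26.4% higher on the carcinoid array, some of these differed. Duct had 0 lower and 2 higher of 5 at 16 weeks and 0 and 3 of 5 in the carcinoid, parietal cells 0 and 3 of 4 in each, mucous cells 0 and 3 of 6 in the carcinoid, and ECL and endocrine cells 0 and 0 of 4 there. Enzyme families outside the pancreas were counted in the same way. Other lipases had 0 lower and 1 higher of 6 at 16 weeks and 0 and 0 of 7 on the carcinoid array. Other proteases and carboxypeptidases had 1 and 1 of 7 at 16 weeks and 2 and 2 of 8 on the carcinoid array, and serine protease inhibitors 0 and 0 of 4 and then 1 and 0 of 4. Hormone-sensitive lipase (Lipe), the adipocyte enzyme, read 58.3 on the carcinoid array, 43.4 at 16 weeks and 70.2 at 8 weeks. As deposited it read 68.4 (carcinoid), 46.8 (16 weeks) and 52.2 (8 weeks), which puts the carcinoid array on top.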

How the data were processed

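Each probe set has 1 deposited intensity per array, which the authors left unlogged. How it was calculated and scaled is not given in the sources used here. The 2% trimmed means (27.6 carcinoid, 25.5 at 16 weeks, 18.1 at 8 weeks) differed, and the 3 arrays were quantile normalized here, which hides a shift shared by most transcripts. Symbols came from the platform annotation supplied with the data. Intensities carry no depth, and the number of arrays limits the precision. Genes outside the set took their brightest probe set.

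Named were all members, up to 4 genes per list with the largest difference from 8 weeks, and the 5 nearest Pnlip. Some named list genes are not printed. Members and the 15 gene lists were chosen with earlier results of these data known. No test between groups was run. The steps were run on simulated data (Python 3.11.15, numpy 2.4.6, pandas 2.3.3). These held less noise than the spread between probe sets found here, with changes planted in the brighter probe sets alone. That run therefore does not show how the steps perform near the floor. Genome coordinates and probe sequences were not used here.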

Additional observations from a re-analysis of the deposited data

How the results depend on the processing

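Without replicates, a setting was taken to move a Pnlip difference when it shifted by more than the spread between probe sets of a gene, and a count when it changed by over 1.5 times. Pnlip kept its direction in every setting that gave it a value. For 16 against 8 weeks its log2 difference was -2.09 with the floor at the 75th percentile (30.0), -2.42 as the median of both probe sets and -1.42 with the floor at the highest no-target control (48.0), a choice made after seeing the data. For carcinoid against 16 weeks it was 0.12 with the 75th percentile floor and 0.62 as the median of both probe sets, and no value could be given with the floor at the highest no-target control. As deposited, 1 of 7 member probe sets was at least 2-fold higher at 16 than at 8 weeks (21.8% of all probe sets). On the carcinoid array 1 of 6 was lower and 1 of 6 higher than at 8 weeks (6.04% and 25.8% of all probe sets). At the settings that follow, the share of all probe sets was not computed, so no rate is read from the counts. With the floor at the 25th percentile (4.2), 1 of 10 was higher at 16 than at 8 weeks and 5 of 9 were lower on the carcinoid array than at 8 weeks. With it at the 75th percentile, 1 of 4 was lower at 16 weeks and 1 of 3 on the carcinoid array, each against 8 weeks. With it at the highest no-target control these counts were 1 of 2 and 1 of 3. For carcinoid against 16 weeks, 0 were lower and 0 higher, of 3 at the 75th percentile and of 1 at the highest control. With log2 of the value plus the floor, 4 of 11 were lower on the carcinoid array than at 8 weeks. With the median of probe sets per gene, 0 of 7 were higher for carcinoid against 16 weeks. The cause of these moves was not tested beyond the floor itself, which sets the bounds. Of 75 further values of single probe sets under other settings, 64 stayed within the spread and 11 moved, among them Cela1 at 16 against 8 weeks, -0.91 with the floor at 30.0 and -0.24 at 48.0. Scaling each array to the same median, or taking the brightest probe set per gene (for Pnlip the same probe set), moved no Pnlip difference and no count beyond these limits. No paired analysis was possible because each group has 1 array.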

Other observations

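Regenerating (Reg) genes, secreted lectins that the pancreas and gut make after injury, differed from one another across the arrays. Reg3g read 17.4 on the carcinoid array, 31.7 at 16 weeks and 45.5 at 8 weeks, 2.61-fold lower on the carcinoid array than at 8 weeks (1.81-fold as deposited). Reg1a on its brightest probe set read 25.5 (carcinoid), 3.93 (16 weeks) and 18.1 (8 weeks). The tissue kallikrein Klk1 reached the floor at 8 weeks alone on both of its probe sets, M19647_i_at at 31.2 and M19647_f_at at 21.9, which makes the carcinoid and 16-week readings lower by at least 2.51-fold and 1.76-fold. These genes were chosen after their values were seen, and each value rests on 1 array.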
